A study of Mus musculus with 12 samples.

Results

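The serpins are a family of 40 genes among the 18193 genes that the array annotation names, and 27 of them were bright enough to be compared. Members were all genes whose single symbol in the platform annotation reads Serpin, a clade letter from a to i and then a digit. A gene was represented by its probe set (the group of short probes that reports on a transcript) with the highest mean over the 12 arrays. Genes were compared if 3 or more of the 12 arrays exceeded log2 4.999, the 40th percentile of the whole table, which kept 13788 genes in all. By role, the 40 members comprised 3 antitrypsins of clade A1, 3 antichymotrypsins of clade A3, 8 other clade A genes, 18 intracellular clade B genes, 4 plasma serpins of clotting, fibrinolysis and complement, and 4 genes of other functions, among them the collagen chaperone Serpinh1.

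Most serpins inhibit serine proteases by a suicide mechanism: the protease cuts an exposed loop of the serpin, the serpin refolds, and the protease is trapped in a stable complex. Several members have lost inhibition and serve as hormone carriers, as a chaperone for collagen or as signalling proteins. The liver secretes most of the serpins of blood plasma, where they restrain clotting, fibrinolysis, complement and leukocyte proteases, and in the mouse clades A and B have expanded into clusters of closely related copies.

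Each of 12 male mice of the inbred strain C57BL6J gave a liver at 30 weeks of age, whose RNA was hybridised to an Affymetrix 3′ expression array of its own. The penicillin high-fat mice drank water with penicillin at 6.7 mg/L and were moved at 17 weeks from chow to a diet with 45% of its energy as fat, and the control high-fat mice had the same diet without the antibiotic. The penicillin chow mice had that penicillin dose and the control chow mice had no antibiotic, and both stayed on the chow with 13.5% of energy as fat on which every mouse had begun. Each group had 3 mice, numbered by the replicate in the labels, which call them biological replicates. The design asks whether penicillin alters expression on either diet, whether the high-fat diet does so with or without penicillin, and whether each effect depends on the other. All values are log2 expression as the authors deposited it after RMA, a method that corrects background and gives every array the same distribution of intensities. Differences are between group means, with their standard error (SE, n = 3 mice per group), and adjusted p-values are those of limma after Benjamini-Hochberg adjustment over the 13788 genes, with 0.05 as the threshold. Arrays have no read depth; what limits the precision is the number of mice.

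The labelled tissue was checked on 13 hepatocyte markers, whose mean level lay between 13.39 and 13.60 on every array, and the correlation between arrays within a group was 0.991 to 0.996. The array of penicillin chow 1 stood apart: it had 20 of 23 measured acute phase genes (the plasma and stress genes induced in inflammation) above the other 11 arrays, against 12.5% of all genes compared. The 18S control signal was 11.8 in penicillin high-fat 2, penicillin chow 2 and penicillin chow 3, and at least 12.7 on the other arrays. The values without these arrays are given for some of the genes and comparisons described, not for all that changed. Without the 3 arrays of low 18S signal, penicillin chow 1 is the only mouse of its group. Differences that involve penicillin chow mice then rest on that mouse. In a piece of liver, fewer cells of a type and less RNA per cell cannot be told apart.

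The high-fat diet changed a subset of the family, among them the carriers of thyroid and glucocorticoid hormones. Averaged over penicillin and control mice, 8 of the 27 serpins passed the threshold, 6 higher and 2 lower, or 29.6%, beside 14.5% of all genes compared. Serpina7, Serpina6, Serpinh1, Serpinb6a, Serpina12 and Serpinb6b rose, and Serpina9 and Serpinf2 fell. The median difference was -0.06 over the 27 members and -0.01 over all genes, and 9 of the 27 differences were positive and 18 negative. Without the 3 arrays of low 18S signal the count was 11, with Serpinb9 higher and Serpina10 and Serpina3n lower in addition. In penicillin mice alone 6 members passed, 4 higher and 2 lower, or 22.2%, beside 8.32% of all genes, and 9 passed without those 3 arrays (Serpinh1 and Serpinb6a did not, and Serpina10, Serpina3n, Serpinb5, Serpinb6b and Serpinb9 did in addition), where a single penicillin chow mouse, the one with high acute phase genes, remains. In control mice alone 4 passed, all higher, or 14.8%, beside 0.899% of all genes. Leaving out control chow 1, control high-fat 1 or control high-fat 2 reduced that count to 1, which was Serpina12 each time, and leaving out penicillin chow 1 raised it to 5, with Serpina9 lower.

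**Figure D1:**
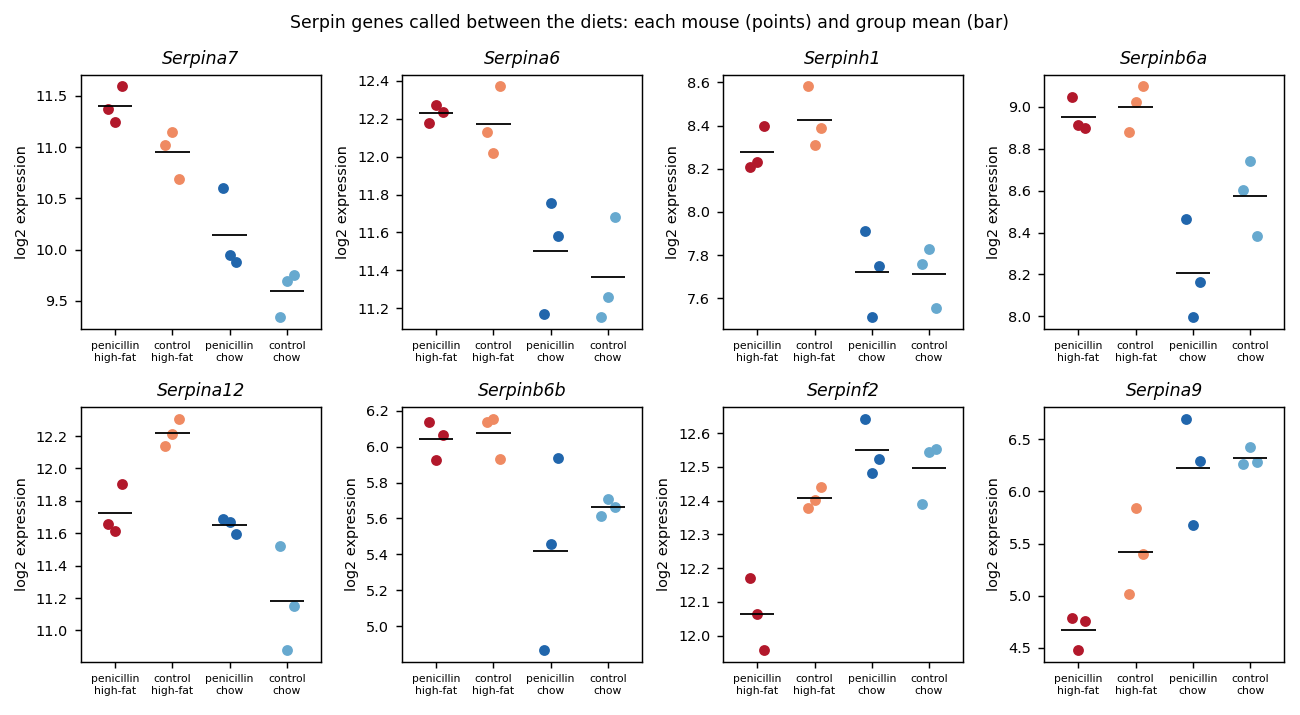
Log2 expression (vertical axis, with its own range in each panel) of the 8 serpins called between the diets, for each mouse (points) and as the group mean (bar, n = 3), with the groups from penicillin high-fat on the left to control chow on the right. Serpina7, Serpina6, Serpinh1 and Serpinb6a are higher in all 6 high-fat mice than in all 6 chow mice, Serpina12 is highest in control high-fat mice, and Serpinf2 is lowest in penicillin high-fat mice.

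Serpina7 encodes thyroxine-binding globulin, a serpin without protease inhibition that carries thyroid hormone in plasma. Its level was 11.37, 11.24 and 11.60 in penicillin high-fat mice and 11.02, 11.14 and 10.69 in control high-fat mice. It was 10.60, 9.94 and 9.88 in penicillin chow mice and 9.34, 9.69 and 9.76 in control chow mice. Every high-fat mouse lay above every chow mouse, and on each diet every penicillin mouse lay above every control mouse. The high-fat diet raised Serpina7 by 1.26 ± 0.19 in penicillin mice (2.39-fold, adjusted p = 0.00313) and by 1.35 ± 0.19 in control mice (2.55-fold, adjusted p = 0.0106). Averaged over treatments the rise was 1.31 ± 0.14 (adjusted p = 3.02e-04), with a 95% interval from 1.01 to 1.60. The call in control mice was lost without control chow 1, control high-fat 1 or control high-fat 2, with adjusted p-values between 0.0574 and 0.0639. In penicillin mice the rise was 0.88 without the 3 arrays of low 18S signal (adjusted p = 0.0456).

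Its promoter is shown as the sequence of the serpin with the lowest adjusted p for diet, with a TATA box (TATAAA, a core promoter element) in capitals. It runs from 250 bases before to 50 bases after an annotated start, from RefSeq on GRCm38.p6. The match lies at positions -27 to -22 from that start, and at -10 to -5 from another annotated start of the gene.
Serpina7 (chrX:139085170-139085469, minus strand): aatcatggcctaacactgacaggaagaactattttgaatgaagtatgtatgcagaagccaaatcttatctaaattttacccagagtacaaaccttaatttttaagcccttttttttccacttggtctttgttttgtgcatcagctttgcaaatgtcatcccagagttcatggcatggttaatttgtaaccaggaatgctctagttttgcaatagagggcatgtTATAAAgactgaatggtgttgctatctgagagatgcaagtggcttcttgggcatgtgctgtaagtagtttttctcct
TATAAA, searched on both strands, occurred in 13.6% of 32851 mouse promoters of this length and in those of 2 of the 21 compared serpins with a promoter entry, Serpina7 and Serpina3a.

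Serpina6 encodes corticosteroid-binding globulin, the plasma carrier of glucocorticoids. Its level was 12.18, 12.27 and 12.23 in penicillin high-fat mice, 12.13, 12.02 and 12.37 in control high-fat mice, 11.17, 11.76 and 11.58 in penicillin chow mice and 11.15, 11.26 and 11.68 in control chow mice. All 6 high-fat mice lay above all 6 chow mice, and the penicillin and control mice overlapped on both diets. The rise was 0.73 ± 0.16 in penicillin mice (1.65-fold, adjusted p = 0.0190) and 0.81 ± 0.16 in control mice (1.75-fold, adjusted p = 0.0449). The averaged rise of 0.77 ± 0.11 (adjusted p = 0.00179) kept its call whichever array was left out. In control mice alone the call was kept in 3 of 12 such fits, those without penicillin chow 1, penicillin chow 2 or control chow 3, and the adjusted p was up to 0.156 in the others. In penicillin mice it was lost without any of the 3 penicillin high-fat mice, with adjusted p-values up to 0.0564. Without the 3 arrays of low 18S signal the difference in penicillin mice was 1.04. There penicillin chow 1, the lowest of its group, was the only penicillin chow mouse. The control call was also lost with cyclic loess, with the mean of all probe sets of a gene and with only the arrays compared, at adjusted p-values from 0.0505 to 0.0561.

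Serpina12 encodes vaspin, an inhibitor of the protease kallikrein 7 best known as a product of visceral fat. Its level was 11.66, 11.61 and 11.90 in penicillin high-fat mice and 12.14, 12.21 and 12.31 in control high-fat mice. It was 11.69, 11.67 and 11.60 in penicillin chow mice and 11.52, 10.88 and 11.15 in control chow mice. Both penicillin groups thus lay between the control groups, and no penicillin mouse overlapped a control mouse on the same diet. In control mice the high-fat diet raised Serpina12 by 1.03 ± 0.14 (2.05-fold, adjusted p = 0.00694), a call kept whichever array was left out. The diet difference in penicillin mice was 0.07 ± 0.14, with a 95% interval from -0.23 to 0.37 (adjusted p = 0.785). The test of the difference between those effects, the interaction, gave -0.96 ± 0.19 with an unadjusted p of 3.72e-04 and an adjusted p of 0.190, so it did not pass over all genes. Leaving out control chow 1 gave -1.13 (adjusted p = 0.0477), and over the other alternatives the adjusted p lay between 0.133 and 0.451. A separate Serpina12 probe set gave diet differences of -0.08 in penicillin mice and 0.89 in control mice. Its promoter, shown because this gene differed between the diets in 1 treatment and not the other, contained 0 of the 7 motifs searched and so has no capitals.
Serpina12 (chr12:104044394-104044693, minus strand): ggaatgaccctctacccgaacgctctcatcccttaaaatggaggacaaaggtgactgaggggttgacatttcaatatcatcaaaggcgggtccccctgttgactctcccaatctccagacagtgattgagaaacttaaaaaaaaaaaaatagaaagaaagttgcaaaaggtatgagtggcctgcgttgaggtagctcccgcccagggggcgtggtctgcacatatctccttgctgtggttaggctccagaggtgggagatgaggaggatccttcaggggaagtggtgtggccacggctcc

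Among the members without protease inhibition, Serpinh1 also rose. It encodes HSP47, the endoplasmic reticulum chaperone that folding procollagen needs. Serpinh1 was at 8.21, 8.23 and 8.40 in penicillin high-fat mice, 8.58, 8.31 and 8.39 in control high-fat mice, 7.91, 7.51 and 7.75 in penicillin chow mice and 7.76, 7.83 and 7.56 in control chow mice, with the 6 high-fat mice above the 6 chow mice. The rise was 0.56 ± 0.12 in penicillin mice (1.47-fold, adjusted p = 0.0142) and 0.71 ± 0.12 in control mice (1.64-fold, adjusted p = 0.0219). The probe set used carries a suffix for probes that may match other transcripts, and the gene's other probe set gave 0.85 in penicillin mice and 0.89 in control mice. Without the 3 arrays of low 18S signal the difference in penicillin mice was 0.39 (adjusted p = 0.176), and the averaged rise of 0.63 ± 0.08 (adjusted p = 8.30e-04) was 0.55 (adjusted p = 0.00965). The call in penicillin mice was also lost without penicillin high-fat 3 and with only the arrays compared (adjusted p = 0.0515), and that in control mice without control high-fat 1, control high-fat 2, control chow 1 or control chow 3.

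The clients and surroundings of this chaperone were followed in a list of 17 compared genes for collagens and their processing. Averaged over treatments, 7 of them rose and 0 fell, beside 14.5% of all genes, with a median of 0.14 against -0.01 over all genes. Col3a1, a fibrillar collagen, rose by 0.83 ± 0.12 (adjusted p = 0.00169). P4ha1, a prolyl hydroxylase subunit that modifies procollagen, rose by 0.91 ± 0.18 (adjusted p = 0.00747), and Sparc, a collagen-binding matrix protein, rose by 0.50 ± 0.07 (adjusted p = 0.00101). The others that rose were Col4a1, Col1a2, Col6a1 and Col4a2. In penicillin mice 6 of the 17 rose (median 0.44), beside 8.32% of all genes. In control mice 0 of the 17 passed (median 0.03), beside 0.899% of all genes. The interaction passed for 0 of the 17. Of 14 markers of stellate cells and fibroblasts, the liver cells that make most collagen, 7 rose and 0 fell in the average (Colec11, Col3a1, Rgs5, Lum, Dcn, Lrat and Reln), beside 14.5% of all genes. By treatment, 6 of the 14 rose in penicillin mice (median 0.50), beside 8.32% of all genes. In control mice 0 passed, beside 0.899% of all genes, and 11 differences were positive and 3 negative (median 0.15). Their mean level ranged from 8.20 to 8.42 in penicillin high-fat mice, 8.13 to 8.32 in control high-fat mice, 7.69 to 7.89 in penicillin chow mice and 8.003 to 8.06 in control chow mice. The part of these cells in the Serpinh1 result was not tested. Of 11 cytosolic heat shock chaperones, 3 rose and 0 fell (median 0.31), beside 14.5% of all genes. They were Hsph1, Dnajb1 and Hspa1b, the last at 1.66 ± 0.35 (adjusted p = 0.00997).

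The Serpinh1 promoter is shown because the gene rose with both treatments. In capitals is a match to ACGTG, the core that hypoxia-inducible factors bind, here as its complement, at positions -171 to -167 from the annotated start.
Serpinh1 (chr7:99353190-99353489, minus strand): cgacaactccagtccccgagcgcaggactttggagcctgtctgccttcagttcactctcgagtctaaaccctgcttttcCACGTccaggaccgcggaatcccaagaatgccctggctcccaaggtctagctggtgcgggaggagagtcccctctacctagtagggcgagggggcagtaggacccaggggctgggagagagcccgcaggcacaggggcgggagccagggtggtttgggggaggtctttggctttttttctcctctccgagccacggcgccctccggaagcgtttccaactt
ACGTG occurred in 19.6% of all promoters and in those of 4 compared serpins, Serpinb5, Serpind1, Serpinf1 and Serpinh1. GAANNTTC, a heat shock element core, occurred in 7.86% of all promoters and in those of Serpinb5 and Serpini1, not in this window of Serpinh1.

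Serpinb6a, the mouse counterpart of an intracellular inhibitor of cathepsin G in human leukocytes, was at 9.04, 8.91 and 8.90 in penicillin high-fat mice and 8.88, 9.02 and 9.10 in control high-fat mice. It was at 8.47, 7.997 and 8.16 in penicillin chow mice and 8.60, 8.74 and 8.38 in control chow mice. The high-fat mice all lay above the chow mice, and among the chow mice penicillin chow 2 and 3 were the lowest. The rise was 0.74 ± 0.12 in penicillin mice (1.67-fold, adjusted p = 0.00516), while 0.42 ± 0.12 in control mice did not pass (adjusted p = 0.130), though 0.40 with arrays weighted by quality did (adjusted p = 0.0461). The interaction of 0.32 ± 0.18 did not pass either (adjusted p = 0.858). Without the 3 arrays of low 18S signal the difference in penicillin mice was 0.51 (adjusted p = 0.0935). Serpinb6b, a related copy on the same chromosome, rose by 0.52 ± 0.14 over both treatments (adjusted p = 0.0305). The call was kept in 4 of 12 fits that left out an array. They were those without penicillin high-fat 2, control high-fat 3, penicillin chow 1 or penicillin chow 3. The rise of Serpinb6b was 0.82 without the 3 arrays of low 18S signal and 0.38 without penicillin chow 1 (adjusted p = 0.0167). Its lowest value, 4.87, was that of penicillin chow 1, and the other 11 arrays lay between 5.46 and 6.15. The remaining 6 compared genes of clade B had averaged differences between -0.14 and 0.17, and none of these passed. A separate and dimmer Serpinb8 probe set (mean 5.21) gave an averaged diet difference of 0.42 ± 0.11, against 0.12 with the set used. In penicillin mice these sets gave 0.60 and 0.24. A separate set of Serpinb9 gave 0.08 averaged, against 0.17 with the set used.

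Clade B serpins act inside cells, many of them leukocytes, and macrophage markers moved with diet as well. Of 15 macrophage and Kupffer cell markers, 13 rose and 0 fell with the high-fat diet averaged over treatments (median 0.67): Adgre1, Clec4f, C1qa, C1qb, C1qc, Cd68, Vsig4, Cd5l, Fcgr1, Timd4, Ctss, Mpeg1 and Csf1r. In penicillin mice 11 rose, beside 8.32% of all genes. In control mice 0 passed, beside 0.899% of all genes, while 15 differences were positive and 0 negative (median 0.52). The interaction passed for 0 of the 15. Their mean level ranged from 9.12 to 9.74 in penicillin high-fat mice and 9.56 to 9.68 in control high-fat mice. It ranged from 8.41 to 9.04 in penicillin chow mice and 9.07 to 9.23 in control chow mice. Adgre1, which encodes an adhesion receptor widely used to mark mouse macrophages, rose by 0.88 ± 0.14 (adjusted p = 0.00283). Of 14 liver endothelial markers, 8 rose and 0 fell (Sox18, Lyve1, Gpr182, Oit3, Pecam1, Stab2, Clec4g and Cdh5). Both averaged counts stand beside 14.5% of all genes. Of the endothelial markers, 6 rose in penicillin mice, beside 8.32% of all genes. In control mice 0 of them passed, beside 0.899%, with 11 differences positive and 3 negative. In penicillin chow mice the mean level of the endothelial markers was 7.89 to 8.12. There the means of the macrophage, endothelial and stellate cell lists all lay below those of the other arrays. The part of these cells in the rise of Serpinb6a and Serpinb6b was not tested. Of 13 leukocyte and pancreatic proteases, among them targets of such serpins, 0 passed for diet averaged over treatments. Cela1, a pancreatic elastase, had opposite diet differences that cancel in that average: it fell in penicillin mice (-0.58 ± 0.16, adjusted p = 0.0423) and had 0.54 ± 0.16 in control mice (adjusted p = 0.125), and with penicillin on the high-fat diet it fell by 1.33 on the log2 scale (SE 0.16, adjusted p = 0.00389). The interaction for Cela1 was -1.12 ± 0.22 (adjusted p = 0.183).

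Serpina9 and Serpinf2 were the members that fell. Serpina9, known in human as centerin, a serpin of germinal centre B cells, was at 4.78, 4.48 and 4.76 in penicillin high-fat mice, 5.02, 5.84 and 5.397 in control high-fat mice, 6.70, 5.68 and 6.30 in penicillin chow mice and 6.26, 6.42 and 6.29 in control chow mice. The high-fat mice lay below the chow mice, except that control high-fat 2 exceeded penicillin chow 2. The penicillin high-fat values all lay below the filter's 4.999, where RMA compresses differences and signal cannot be told from background, so the fall may be understated. It fell by 1.55 on the log2 scale in penicillin mice (SE 0.24, adjusted p = 0.00340), while the difference in control mice was -0.90 ± 0.24 (adjusted p = 0.0997). The averaged difference was -1.22 ± 0.17 (adjusted p = 0.00113). In penicillin mice it was -1.92 without the 3 arrays of low 18S signal. There penicillin chow 1, the highest of its group, was the only penicillin chow mouse. Without penicillin chow 1 the difference in control mice also passed (adjusted p = 0.0471). Of 10 markers of B and T cells, the mean level lay between 5.84 and 6.07 in penicillin high-fat mice, 5.93 and 6.08 in control high-fat mice, 5.80 and 6.10 in penicillin chow mice and 5.94 and 6.32 in control chow mice, with overlap between all 4 groups.

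Serpinf2 encodes alpha 2-antiplasmin, the main inhibitor of plasmin and so of clot dissolution. It was at 12.17, 12.06 and 11.96 in penicillin high-fat mice, 12.38, 12.40 and 12.44 in control high-fat mice, 12.64, 12.48 and 12.52 in penicillin chow mice and 12.39, 12.55 and 12.55 in control chow mice. The 3 penicillin high-fat mice were below the other 9, and control chow mice overlapped both control high-fat and penicillin chow mice. The diet difference was -0.49 ± 0.08 in penicillin mice (0.714-fold, adjusted p = 0.00473), a call kept whichever array was left out. It was -0.09 ± 0.08 in control mice (adjusted p = 0.650). Without the 3 arrays of low 18S signal the difference in penicillin mice was -0.58. There penicillin chow 1, the highest of all 12 arrays, was the only penicillin chow mouse. The interaction of -0.40 ± 0.11 did not pass (adjusted p = 0.521). On the high-fat diet Serpinf2 had the smallest p of the family for penicillin: the difference was -0.34 ± 0.08 (adjusted p = 0.112), and with arrays weighted by quality it was -0.35 and passed (adjusted p = 0.0444). Its promoter is shown for that reason, with the glucocorticoid response element core TGTTCT in capitals as its complement, on the first 6 bases from the annotated start.
Serpinf2 (chr11:75439452-75439751, minus strand): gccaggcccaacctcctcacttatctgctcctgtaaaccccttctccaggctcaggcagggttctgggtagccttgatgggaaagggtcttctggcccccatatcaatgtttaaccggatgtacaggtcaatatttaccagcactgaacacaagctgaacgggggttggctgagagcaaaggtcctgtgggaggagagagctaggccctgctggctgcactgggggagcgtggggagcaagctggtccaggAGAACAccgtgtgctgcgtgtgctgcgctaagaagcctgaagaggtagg
TGTTCT, on either strand, occurred in 19% of all promoters and in those of 9 compared serpins.

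**Figure D2:**
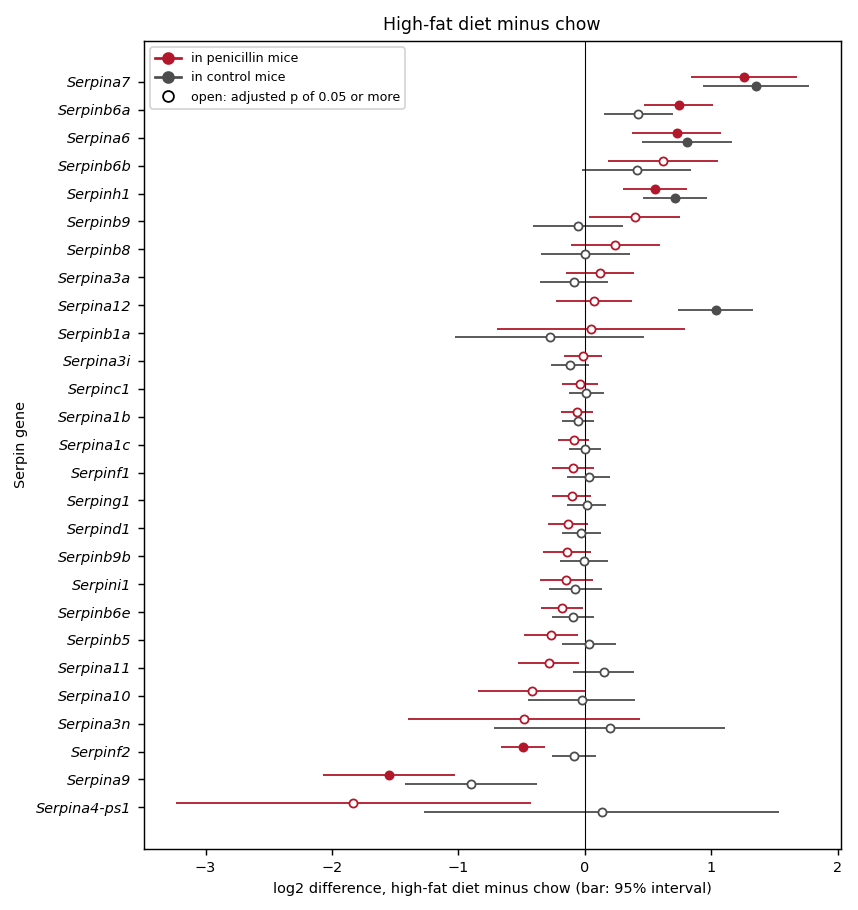
Log2 difference, high-fat diet minus chow (horizontal axis; bar, 95% interval), for the 27 compared serpins in penicillin mice (red) and control mice (grey), ordered by the value in penicillin mice, with filled points for an adjusted p under 0.05. Serpina7 and Serpina6 are positive and filled with both treatments, Serpina12 is filled in control mice, and Serpina9 and Serpinf2 are negative and filled in penicillin mice.

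Some other abundant plasma serpins had narrow ranges over the arrays, unlike Serpinf2 and Serpina10 (12.29 to 13.33). Serpinc1, antithrombin, ranged from 14.14 to 14.29 over the 12 arrays, and its diet difference had a 95% interval from -0.18 to 0.11 in penicillin mice and from -0.13 to 0.15 in control mice. Serpind1, heparin cofactor II, ranged from 12.35 to 12.60, and Serping1, the C1 inhibitor of complement and contact activation, from 13.11 to 13.33. Serpina1c and Serpina1b, copies of alpha 1-antitrypsin, the inhibitor of neutrophil elastase, ranged from 14.85 to 14.96 and from 14.66 to 14.78, and Serpinf1, pigment epithelium-derived factor, from 13.14 to 13.41. Serpinc1, Serpind1, Serping1, Serpina1c, Serpina1b and Serpinf1 had 0 calls in the 7 contrasts. The table's maximum was 15.21, so values near it may be compressed, and the within-group SDs of 0.01 for Serpina1c and 0.05 for Serpinc1 compare with a median of 0.13 over all genes. The Serpina1 copies are near identical, and their probe sets may share signal. A dimmer probe set annotated to Serpina1e, Serpina1c and Serpina1b together (mean 12.28) had an averaged diet difference of -0.63 ± 0.05. A set annotated to Serpina1d and Serpina1a (mean 14.31) had -0.08 ± 0.05. Both lie outside the comparisons and are described at the end.

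The proteases that these inhibitors restrain were followed beside them. The list held 19 compared proteases of coagulation, fibrinolysis and complement, with some others such as Hgfac. With the high-fat diet averaged over treatments 1 rose and 4 fell, with a median of -0.05. Over all genes 14.5% passed in this comparison, which stands beside this count and those of the lists that follow. In penicillin mice 0 of the 19 rose and 3 fell (median -0.12), beside 8.32% of all genes. In control mice 0 passed (median -0.003), beside 0.899% of all genes. Averaged over treatments, C1ra, which encodes the complement protease C1r, had a difference of -0.35 ± 0.06 (adjusted p = 0.00293). F11, coagulation factor XI, had a difference of -0.63 ± 0.12 (adjusted p = 0.00597). F7, coagulation factor VII, had one of -0.32 ± 0.07 (adjusted p = 0.00954), and Masp1, a protease of the lectin pathway of complement, had -0.30 ± 0.08 (adjusted p = 0.0295). Hgfac, the activator of hepatocyte growth factor, rose by 0.28 ± 0.07 (adjusted p = 0.0246). Of 19 clotting factors, cofactors and receptors that bind serpins, 3 rose (Vldlr, Procr and F8) and 3 fell (Lrp1, Hrg and Sort1). Vldlr, a lipoprotein receptor that also takes up serpin complexes with proteases, rose by 1.78 ± 0.17 (adjusted p = 1.77e-04), and Lrp1, the main such receptor of the liver, had a difference of -0.36 ± 0.08 (adjusted p = 0.0152). Of 22 plasma protease inhibitors outside the family, 4 rose (Wfdc2, Cst3, Tfpi2 and Cstb) and 4 fell (Spint2, Fetub, Mug1 and Itih1). Wfdc2, a secreted protein of the whey acidic protein family, rose by 1.76 ± 0.15 (adjusted p = 9.48e-05), and Fetub, fetuin B, had a difference of -0.33 ± 0.05 (adjusted p = 0.00249).

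Penicillin was then compared with control on each diet. On the high-fat diet 0 of the 27 serpins passed, beside 0.341% of all genes, and 7 had an unadjusted p under 0.05, 2 higher and 5 lower, beside 10.1% of all genes. On chow 0 passed, beside 0.00725% of all genes, and 5 had an unadjusted p under 0.05, 2 higher and 3 lower, beside 7.62% of all genes. Averaged over diets 0 passed, beside 0.145% of all genes, and 6 had an unadjusted p under 0.05, 2 higher and 4 lower, beside 11.9% of all genes. The interaction gave 0 calls, beside 0.0435% of all genes, and 3 members with an unadjusted p under 0.05, all negative, beside 6.11% of all genes. The test of any difference between the 4 groups passed for 7 members, or 25.9%, beside 7.78% of all genes; they were the 8 of the averaged diet comparison without Serpinb6b. The median penicillin difference was -0.09 on the high-fat diet and 0.01 on chow, against 0.00 and -0.01 over all genes.

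**Figure D3:**
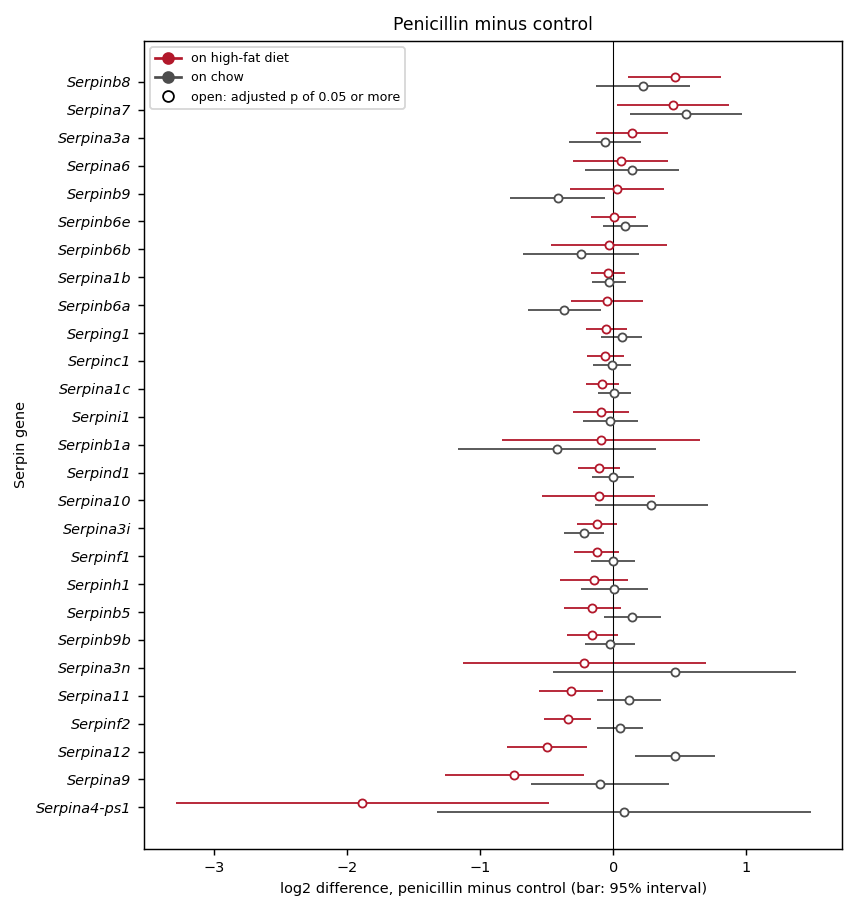
Log2 difference, penicillin minus control (horizontal axis; bar, 95% interval), for the 27 compared serpins on the high-fat diet (red) and on chow (grey), ordered by the value on the high-fat diet. All points are open, since none had an adjusted p under 0.05; Serpina12 lies at -0.50 on the high-fat diet and 0.47 on chow.

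Serpina7 had positive penicillin differences on both diets, 0.45 ± 0.19 on the high-fat diet (adjusted p = 0.451) and 0.55 ± 0.19 on chow (adjusted p = 0.598), and 0.50 ± 0.14 when averaged (adjusted p = 0.188). Without the 3 arrays of low 18S signal the averaged value was 0.77 (adjusted p = 0.0258), with penicillin chow 1, the highest of its group at 10.60, as the only penicillin chow mouse. Serpina12 had differences of -0.50 ± 0.14 on the high-fat diet (adjusted p = 0.200) and 0.47 ± 0.14 on chow (adjusted p = 0.527). Serpinb8, an intracellular serpin whose human counterpart inhibits furin, had 0.46 ± 0.16 on the high-fat diet (adjusted p = 0.341) and 0.22 ± 0.16 on chow (adjusted p = 0.786). Serpina3i, a dim member of the antichymotrypsin cluster, had -0.12 ± 0.07 on the high-fat diet (adjusted p = 0.620) and -0.22 ± 0.07 on chow (adjusted p = 0.527), but all 6 penicillin values lie below the filter's floor and the gene was compared through 4 control arrays alone, so a difference was fixed in part by the filter and is not read as one. Serpinb6a had -0.05 ± 0.12 on the high-fat diet (adjusted p = 0.938) and -0.37 ± 0.12 on chow (adjusted p = 0.564). Serpina11 had an interaction of -0.44 ± 0.16 (adjusted p = 0.724). None of these differences passed after adjustment over all genes.

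Serpina3n and Serpina10 were highest in 1 mouse, penicillin chow 1. Serpina3n, an antichymotrypsin of the mouse that is induced in inflammation, was at 12.11 in penicillin chow 1 and between 9.99 and 10.79 on the other 11 arrays, 1.75 below it on average. Serpina10, the protein Z-dependent inhibitor of coagulation factor Xa, was at 13.33 there and between 12.29 and 12.73 elsewhere. In that mouse 6 of the 27 serpins lay above all other arrays (Serpina10, Serpina11, Serpina3n, Serpina9, Serpinb5 and Serpinf2), or 22.2%, beside 12.5% of all genes, and 3 lay below (Serpinb6b, Serpinb9 and Serpinf1), or 11.1%, beside 16% of all genes. Saa2, a serum amyloid A gene, was at 12.69 there against at most 10.20 elsewhere. The within-group SD of Serpina3n was 0.61, in which this mouse takes part, and its penicillin difference on chow was 0.46 ± 0.42 (adjusted p = 0.839), or -0.19 without this mouse (adjusted p = 0.886). The diet difference of Serpina10 in penicillin mice was -0.42 ± 0.19 (adjusted p = 0.208), or -0.16 without it (adjusted p = 0.534). The Serpina3n promoter is shown as that of the serpin furthest above the others in this mouse, with TGTTCT in capitals as its complement, at positions -183 to -178 from the annotated start.
Serpina3n (chr12:104406458-104406757, plus strand): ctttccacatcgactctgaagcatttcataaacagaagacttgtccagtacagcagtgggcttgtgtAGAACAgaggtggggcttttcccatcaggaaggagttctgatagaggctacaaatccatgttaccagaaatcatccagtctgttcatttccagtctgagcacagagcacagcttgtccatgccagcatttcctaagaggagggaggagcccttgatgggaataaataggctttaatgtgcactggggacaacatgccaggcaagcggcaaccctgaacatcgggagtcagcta
TTCNNNGAA, the core that STAT factors bind, occurred in 8.3% of all promoters and in those of Serpina11, Serpina3i and Serpinb6a, not in this window of Serpina3n. TTGNNNAAT, a C/EBP core, occurred in 11.4% of all promoters and in those of Serpina1b, Serpina1c, Serpina3a and Serpinb8, and the E-box CACGTG occurred in 7.15% and in no compared serpin.

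**Figure D4:**
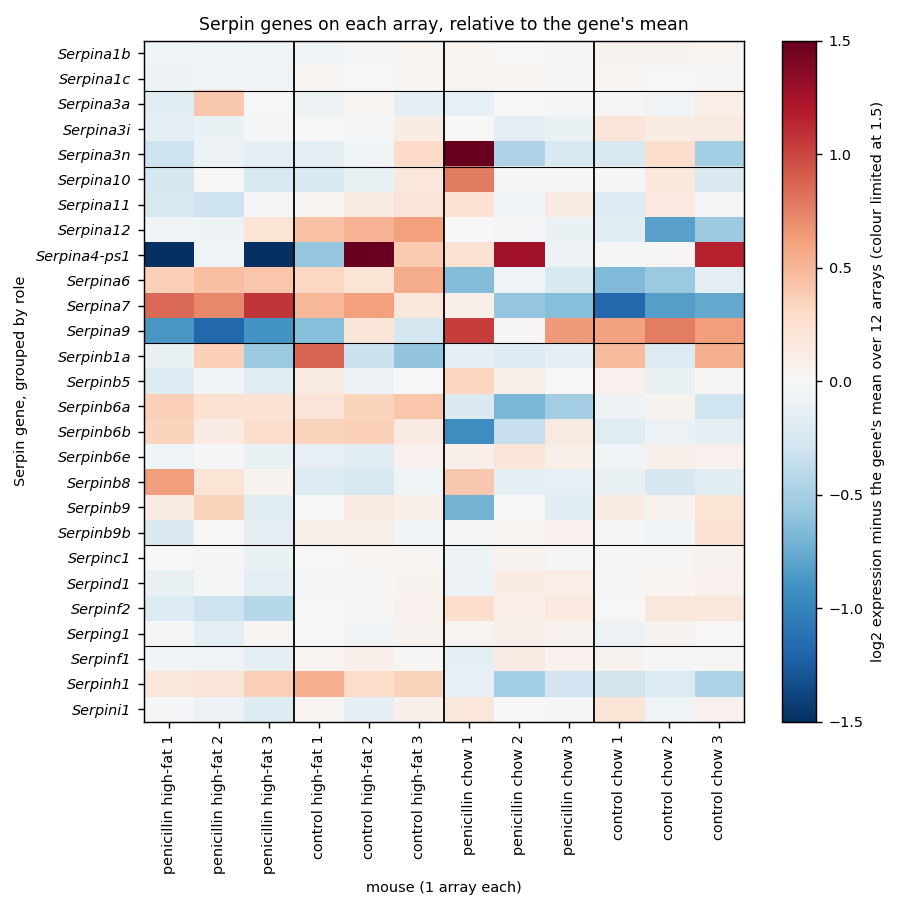
Log2 expression of the 27 compared serpins (rows, grouped by role) on each of the 12 arrays (columns, from penicillin high-fat 1 to control chow 3), as the difference from the gene's mean over all arrays (colour, limited at 1.5). Serpina7 and Serpina9 change colour between the diets, Serpina3n and Serpina10 stand out in penicillin chow 1, and Serpina4-ps1 varies between mice of the same group.

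Serpina4-ps1, a pseudogene of the kallistatin gene, had the largest within-group SD of the 27 members, 0.95. It was at 8.77, 10.77 and 8.87 in penicillin high-fat mice, 10.26, 12.58 and 11.23 in control high-fat mice, 11.05, 12.10 and 10.76 in penicillin chow mice and 10.82, 10.85 and 11.998 in control chow mice. Penicillin high-fat 1 and 3 were the lowest arrays, and penicillin high-fat 2 lay among the other groups. Its penicillin difference on the high-fat diet was -1.89 ± 0.64 (adjusted p = 0.329) and its diet difference in penicillin mice was -1.83 ± 0.64 (adjusted p = 0.103). Without penicillin high-fat 2 the diet difference was -2.48 (adjusted p = 0.0367). The gene's other probe sets gave diet differences of -1.89 and -1.96 in penicillin mice.

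By position, 13 members lie on chromosome 12, 11 on chromosome 13, 8 on chromosome 1 and the rest on 6 other chromosomes, in the gene table of assembly GRCm38.p6. The clade A members on chromosome 12 run in the order Serpina10, Serpina6, Serpina1f, Serpina1b, Serpina1c, Serpina11, Serpina9, Serpina12, Serpina4-ps1, Serpina5, Serpina3a, Serpina3i and Serpina3n. This order holds members only, so other genes may lie between those named as next to each other. Within it, some called members stand beside one of the opposite direction or without a call. Serpina9, with an averaged diet difference of -1.22, stands next to Serpina12, with 0.55. The near-identical Serpina1b and Serpina1c follow each other in this order, at -0.06 and -0.04. Their promoter windows begin apart, at positions 103738140 and 103904901. Serpina6, with 0.77, stands next to Serpina10, with -0.22 (adjusted p = 0.303). Serpina7, which had the largest rise, lies apart on the X chromosome. On chromosome 11 Serpinf2, with -0.29 (adjusted p = 0.00698), stands next to Serpinf1, with -0.03 (adjusted p = 0.742).

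**Figure D5:**
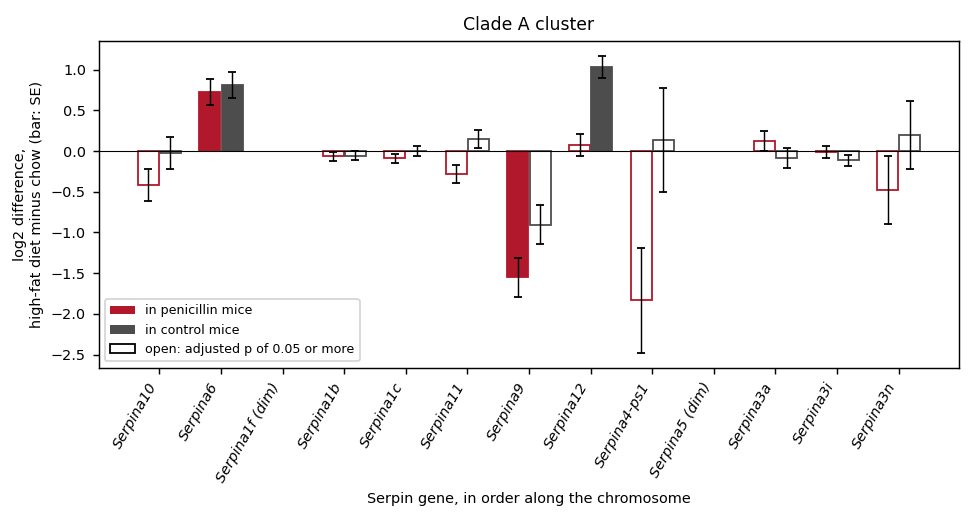
Log2 difference, high-fat diet minus chow (vertical axis; error bar, SE), for the clade A serpins of chromosome 12 in their order along it, evenly spaced, in penicillin mice (red, left bar) and control mice (grey, right bar), with filled bars for an adjusted p under 0.05. Serpina6, Serpina9 and Serpina12 carry the filled bars, and genes marked dim were not compared.

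The other 13 members were too dim to be compared, and none of them exceeded the filter on any array. Closest below it was Serpinb12, with a highest value of 4.62, and closest above it was Serpini1, neuroserpin, an inhibitor of tissue plasminogen activator, which ranged from 4.73 to 5.13 and passed on 3 arrays. The dim members included Serpina5, which encodes the protein C inhibitor and in the mouse is known from the reproductive tract, at 3.81 to 4.12, and 10 of the 18 genes of clade B. Their values cannot be told from background.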

How the data were processed

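Liver RNA of 12 mice was measured on Affymetrix 3′ arrays. The authors deposited log2 expression values of 45101 probe sets, made with RMA in affy per the submitters' processing notes, with no version stated there. RMA equalises the arrays (medians 5.52 to 5.59), so differences are relative to the bulk of the genes, and values near the floor or the maximum of 15.21 are compressed. Detection calls, scan dates and hybridisation batches were not used here, and the part of a batch in any result was not tested. Probe sets came with 1 symbol (34945) or several (932) in GEO's platform annotation; those of several genes and control sets were left out. Of the 40 serpins, 12 had several probe sets, and the probe sets of 4 of the 27 compared may match other transcripts.

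Groups were taken from the sample titles. Limma 3.58.1 in R 4.3.3 fitted 4 group means on 12 arrays (lmFit, 8 residual degrees of freedom, eBayes), with 7 contrasts and an F-test, each adjusted by Benjamini-Hochberg over 13788 genes at 0.05. Replicates are biological per the labels, and p-values rest on the spread between them. The median SE was 0.10 between groups and 0.15 for the interaction. The members and gene lists were chosen with earlier results of these data known. Over 18 lists, 261 of 289 entries were found. Named are members past the threshold in any test, the 3 with the smallest p per contrast, the 6 highest means, those at the filter's edge, and of other lists members past the threshold and up to 4 with the smallest p; Serpina3n, Serpina4-ps1, Serpind1, Serpina5 and Saa2 were named after their values were seen. Promoters and gene order come from RefSeq on GRCm38.p6, for 21 of the 27 members; Serpina6, Serpina9 and Serpina10 are among those named only. The fit was tested on simulated data. The labels state no pairing of mice by replicate number. Over 18 pairs of same-numbered mice, deviations correlated at -0.23 to 0.17, which with 3 mice per group cannot exclude a pairing. Alternatives covered the filter, the probe set, cyclic loess, the variance model, array weights, a replicate block, only the arrays compared and each array left out. A fit without the 3 arrays of low 18S signal was chosen after seeing the data.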

Additional observations from a re-analysis of the deposited data

Results flagged for a closer look

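The penicillin differences of Serpina12, vaspin, had opposite signs on the diets, and neither passed. All 3 penicillin mice lay below all 3 controls on the high-fat diet (-0.50 ± 0.14, adjusted p = 0.200) and above them on chow (0.47 ± 0.14, adjusted p = 0.527). The gene was flagged for this separation, so the separation is no further support. How many of all genes separate this way was not counted. The interaction was -0.96 ± 0.19 (SE, n = 3 mice per group), and limma's test of it gave an adjusted p of 0.190 over 13788 genes. A separate probe set of the gene gave -0.42 on the high-fat diet and 0.55 on chow.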

How the results depend on the processing

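With 1 array left out, the calls for penicillin stayed at 0 on the high-fat diet, on chow and averaged, those for the interaction ranged from 0 to 1 (1 without control chow 1, Serpina12), those for the high-fat diet from 4 to 7 in penicillin mice, 1 to 5 in control mice and 7 to 8 averaged, and those for any difference from 6 to 8. Array weights gave 1 call for penicillin on the high-fat diet, Serpinf2, and over all genes 183 there, against 47. Without the 3 arrays of low 18S signal there were 3 calls for penicillin on chow (Serpina3n higher, Serpinb9 and Serpinb6b lower) and 3 averaged over diets (Serpina7 higher, Serpinb9 and Serpinb6b lower), in fits where penicillin chow 1 is the lone mouse of its group and is assumed to vary like the others; the cause was not tested. Over all genes that setting called 251 for penicillin on chow, against 1, and 416 averaged, against 20. Of 610 refits of 30 results on single genes, 573 kept their side of the threshold, 34 lost it, 3 gained it and 0 changed sign. The replicate block left the counts of serpins at 0 for each penicillin comparison and the interaction. It left them at 6 and 4 for diet in penicillin and control mice, 8 averaged and 7 for any difference. The count over all genes for diet in control mice was 70 with the block and 124 without it. Cyclic loess moved no median over all genes by more than 0.01. With 3 mice per group and no detection calls, small differences and those of dim genes were not resolved.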

Other observations

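A probe set annotated to Serpina1e, Serpina1c and Serpina1b together, and so outside the comparisons, was at 11.85, 11.90 and 11.84 in penicillin high-fat mice, 12.04, 11.99 and 12.16 in control high-fat mice, 12.63, 12.65 and 12.59 in penicillin chow mice and 12.59, 12.55 and 12.55 in control chow mice. Its diet difference was -0.76 in penicillin mice and -0.50 in control mice. The 6 high-fat mice lay below the 6 chow mice, and the 3 penicillin high-fat mice were the lowest. The single-gene probe sets of Serpina1b and Serpina1c gave diet differences of -0.07 and -0.09 in penicillin mice and -0.06 and 0.00 in control mice. A set annotated to Serpina1d and Serpina1a gave -0.12 in penicillin mice and -0.04 in control mice. Which copy each of these sets reports was not tested.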
